A study of Mus musculus with 16 samples.

Results

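The tumours described here grew from B16R2L, a mouse melanoma cell line of the B16 family, whose cells carried a non-targeting short hairpin RNA (shCtrl) and so kept their midkine gene, Mdk, untouched. The 8 shCtrl tumours were chosen by their labels from the 16 tumours of the study: 4 came from mice given an antibody against the receptor PD1 (clone RMP1-14) and 4 from mice given the IgG2a control antibody. The other 8 tumours came from the same line with a hairpin against Mdk (shMdk), 4 with each antibody, and serve below only for comparison. Treatment began at a tumour volume of 100 mm3 and was given 2 times a week for 2 weeks, at 10 mg/kg for anti-PD1 per the sample labels; the text on the series' design gives the same figure in grams per kg. The dose of the control antibody, and the strain, sex and age of the mice, were not given in the sources used here. All groups share 1 cell line, and each arm rests on 1 hairpin. RNA was read from the 3′ end of transcripts in whole tumours, so values mix melanoma cells with host cells, and fewer cells of a type cannot be told apart from less RNA per cell. The question was what PD1 blockade does to gene expression in the line that keeps midkine, and how far the single tumours differ.

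PD1 is a receptor on activated T cells that dampens their response when it binds its ligands PD-L1 (Cd274) and PD-L2 (Pdcd1lg2). Antibodies that block it are used to release T cells in melanoma. T cells that recognise tumour cells secrete interferon gamma, which acts through JAK kinases to induce IRF1, chemokines such as CXCL9, guanylate-binding proteins, the immunoproteasome and the MHC molecules that present peptides. The coactivator CIITA drives the MHC class II genes, and macrophages and other antigen-presenting cells express these genes strongly.

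Interferon and MHC genes differed between single tumours, as described below, and 4 of their promoters are shown with the letters of elements known from such genes. RefSeq entries (GRCm38.p6) were found for 6 of 9 such genes looked up (Gbp2, Irf1, H2-Aa, H2-Eb1, Cxcl9 and Tap1; the others were Gbp4, Iigp1 and H2-Ab1), and the 250 bases before each start were searched on both strands. The letters searched were GAAANNGAA for the core of the interferon-stimulated response element (ISRE), TTCNNNGAA for the gamma-activated site (GAS), and CTGATTGG for the Y box of MHC promoters. Among 32851 RefSeq promoters of that length, 7.13% held the first, 7.02% the second and 3.83% the last. Each sequence reads 5′ to 3′ in the direction of the gene, with the matched letters in capitals: an ISRE core in Gbp2, a GAS in Irf1 and a Y box in H2-Aa and H2-Eb1. The windows lie at chr3:142620413-142620662 (plus strand) for Gbp2, chr11:53769764-53770013 (plus) for the first of the Irf1 entries, chr17:34287824-34288073 (minus) for H2-Aa and chr17:34305617-34305866 (plus) for H2-Eb1.
Gbp2: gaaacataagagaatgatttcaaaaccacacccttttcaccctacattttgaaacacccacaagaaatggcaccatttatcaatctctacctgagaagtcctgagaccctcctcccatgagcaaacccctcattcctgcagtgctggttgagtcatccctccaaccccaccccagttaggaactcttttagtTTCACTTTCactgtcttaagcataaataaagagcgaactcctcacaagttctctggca
Irf1: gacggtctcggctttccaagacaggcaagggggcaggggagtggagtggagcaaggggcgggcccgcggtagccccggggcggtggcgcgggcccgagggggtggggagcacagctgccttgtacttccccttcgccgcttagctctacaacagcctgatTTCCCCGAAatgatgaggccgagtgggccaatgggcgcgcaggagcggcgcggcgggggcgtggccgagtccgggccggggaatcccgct
H2-Aa: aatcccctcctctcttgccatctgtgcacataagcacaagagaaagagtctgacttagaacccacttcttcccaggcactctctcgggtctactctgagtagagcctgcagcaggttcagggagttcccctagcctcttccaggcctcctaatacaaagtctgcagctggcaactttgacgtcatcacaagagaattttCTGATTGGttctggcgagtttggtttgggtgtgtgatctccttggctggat
H2-Eb1: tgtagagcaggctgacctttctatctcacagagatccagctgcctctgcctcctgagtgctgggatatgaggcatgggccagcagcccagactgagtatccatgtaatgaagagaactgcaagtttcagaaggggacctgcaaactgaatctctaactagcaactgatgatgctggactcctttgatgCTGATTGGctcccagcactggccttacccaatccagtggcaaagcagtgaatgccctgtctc
Cxcl9 held an ISRE core and a Y box and Tap1 a Y box, while the window of the other Irf1 entry held none of the 3 motifs. A match describes these letters only, and nothing in these data measures binding.

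Depth ran from 5686405 to 8675012 reads per tumour, and 3 of the 8 libraries stood apart. Anti-PD1 tumour 2 was the shallowest, with 6.70% of its reads from haemoglobin genes against 0.0469% to 1.47% in the other 7, and 4.47% from Gm42418, a gene model that collects ribosomal RNA reads. IgG2a tumours 1 and 2 had fewer reads than the others on genes whose 3′ ends are rich in A and T: their values were higher by 0.16 and 0.13 log2 units for each 10% of GC, whereas the slopes of the other 6 ran from −0.13 to −0.05. No pair of libraries agreed within sampling noise. For none of the 7 library measures was a difference of means between arms detected (exact permutation test, two-sided, smallest p = 0.143, with 0.0286 the smallest that 4 against 4 tumours allow). That test cannot show that the arms' libraries were alike. Positive GC slopes occurred only in IgG2a tumours 1 and 2, and the highest haemoglobin and Gm42418 shares in anti-PD1 tumour 2. Melanosome genes were abundant in every tumour: Dct, encoding dopachrome tautomerase, had 68691 to 131868 normalised counts and Pmel, encoding the melanosome fibril protein, 20659 to 38857 in the 8 tumours. Mdk had 601, 727, 959 and 1161 normalised counts in the IgG2a tumours and 925, 606, 1104 and 856 in the anti-PD1 tumours, a log2 difference of 0.03 ± 0.36 (SE), so the arms did not separate by the growth factor itself.

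No gene passed the test for anti-PD1 against IgG2a. Of 14672 genes tested with limma on log2(normalised count + 1), 0 (0%) had a Benjamini-Hochberg adjusted p under 0.05, the smallest being 0.141. At an unadjusted p under 0.05 there were 556 genes, 279 with a higher mean under anti-PD1 (1.9%) and 277 with a lower one (1.89%). The 4 anti-PD1 values lay above all 4 IgG2a values for 144 genes (0.981%) and below them for 166 (1.13%). The median log2 difference over all genes was 0.01 and the median SE 0.27, and 51.34% of genes had a positive difference. edgeR on the recovered reads also called 0 genes (585 at an unadjusted p under 0.05), whereas DESeq2 called 7, all higher under anti-PD1 (0.0477%): C130026I21Rik, Casp12, Cd53, Sdc3, Mmp12, Abcg3 and the gene model Gm2619. limma with a quality weight per library called 20 (0.136%), again all higher. Those in the gene lists described below were Gbp4 and Zbp1 (interferon gamma), Ifi204 (type I interferon), Tyrobp (macrophage), Cd22 (B cell) and Cd53 (pan-leukocyte). Without anti-PD1 tumour 2 limma called 2 genes (0.0137%), C130026I21Rik and Casp12, and without all 3 libraries that stood apart it called 0, with 383 at an unadjusted p under 0.05.

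The smallest p belonged to C130026I21Rik, which lies in a cluster of Sp110-related genes on chromosome 1 (84992690 to 85270566, minus strand, GRCm38, GENCODE vM21) and was singled out after its values were seen. It had 13.5, 12.8, 12.4 and 9.23 normalised counts in the IgG2a tumours and 71.7, 31.5, 89.3 and 33.3 in the anti-PD1 tumours. Every anti-PD1 tumour was more than 2-fold above every IgG2a tumour, and the log2 difference was 2.02 ± 0.33 (adjusted p = 0.141), or 2.38 ± 0.39 without the 3 libraries. The genes of this cluster are near copies of each other, so reads may be shared among them and the level is uncertain. Casp12, encoding an inflammatory caspase, was the other gene called without anti-PD1 tumour 2. It had 13.5, 16, 8.56 and 18.5 normalised counts under IgG2a and 53.3, 16.5, 55.8 and 42.2 under anti-PD1, so tumours 1, 3 and 4 were high and tumour 2 lay among the controls (1.42 ± 0.33, adjusted p = 0.798).

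The 10 named genes with the smallest p among those whose anti-PD1 values all lay above the IgG2a values were Sdc3, Rapgef5, Abcg3, Rgs1, Metrnl, Mmp12, Tnfrsf19, Prex1, Ms4a6c and Oca2; none passed the test, with adjusted p from 0.577 to 0.798. Several are known from myeloid cells. Mmp12, encoding the macrophage elastase, had 29.3, 30.9, 24.7 and 41.5 normalised counts under IgG2a and 106, 46.5, 62.3 and 137 under anti-PD1 (1.35 ± 0.31). Ms4a6c, a membrane protein gene of monocytes and macrophages, had 20.3, 27.7, 27.6 and 24.9 against 48.7, 30.0, 105 and 77.3 (1.21 ± 0.33). Rgs1, encoding a regulator of G protein signalling in leukocytes, had 3.38, 2.13, 2.85 and 5.54 against 12, 7.51, 12.1 and 19.8 (1.61 ± 0.35). In all 3, anti-PD1 tumour 2 held the lowest value of its arm, close to the top of the controls.

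Sdc3 encodes syndecan-3, a heparan sulfate proteoglycan that can bind midkine. It had 46.2, 59.7, 59 and 72.9 normalised counts under IgG2a and 106, 144, 97.6 and 116 under anti-PD1 (59.4 ± 10.9 against 116 ± 20.3, SD, n = 4), a log2 difference of 0.95 ± 0.20 (adjusted p = 0.577). It was highest in anti-PD1 tumour 2, the reverse of the myeloid genes. Metrnl, encoding a secreted meteorin-like protein, shared that order, with 29.3, 36.2, 32.3 and 39.7 against 58.9, 84.1, 54.9 and 62.9 (0.89 ± 0.20). The differences of Sdc3 and Metrnl were 0.69 ± 0.23 and 0.70 ± 0.24 without the 3 libraries. Abcg3, a transporter gene of the ABCG family, went from 0, 2.13, 1.90 and 6.46 to 28.5, 7.51, 24.2 and 14.4 normalised counts; this is the widest difference of the 10 (2.62 ± 0.56) and rests on the fewest reads in the controls. Prex1, encoding an exchange factor for the GTPase Rac, was also near the limit of detection in the controls, at 2.25 to 4.62 against 7.19 to 13.9. Rapgef5, encoding an exchange factor for Rap GTPases, had 16 to 22.2 against 31.6 to 47.8. Tnfrsf19, a receptor gene of the tumour necrosis factor receptor family, had 56.3 to 93.8 against 120 to 197. Oca2, encoding a melanosomal membrane protein, had 55.2 to 116 against 118 to 235, so its arms nearly touched.

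The 10 corresponding genes on the lower side were Itga2, Calr4, Exoc6, C8g, Tlr6, Ecm2, Abca12, Ddc, Adh1 and Slc30a1, all with an adjusted p of 0.798. Itga2, encoding the collagen-binding integrin alpha 2, had 25.9, 28.8, 18.1 and 24 normalised counts under IgG2a and 11, 10.5, 8.37 and 13.5 under anti-PD1 (−1.09 ± 0.29). Calr4, encoding a calreticulin-like chaperone, had 7.88, 9.59, 12.4 and 11.1 against 0.92, 3, 3.72 and 1.8 (−1.81 ± 0.48). Tlr6, encoding a Toll-like receptor for bacterial lipopeptides, had 50.7, 48, 46.6 and 43.4 against 26.7, 16.5, 31.6 and 29.7 (−0.87 ± 0.26). The IgG2a values of Tlr6 were tight and the anti-PD1 values were all well below them, lowest in tumour 2. Slc30a1, encoding a zinc exporter, had 162, 144, 132 and 130 against 103, 57, 104 and 89 (−0.71 ± 0.22), and Ddc, encoding DOPA decarboxylase, 436 to 557 against 186 to 423 (−0.63 ± 0.20). Abca12, a lipid transporter gene, had 60.9 to 83.3 against 21.2 to 54.8, and Adh1, encoding an alcohol dehydrogenase, 80.3 to 145 against 47.4 to 60.2. Exoc6, encoding an exocyst subunit, had 32 to 39.7 against 10.5 to 27.6, C8g, encoding the complement component 8 gamma chain, 37.1 to 48.4 against 12 to 34.9, and Ecm2, a matrix protein gene, 5.33 to 7.88 against 0.93 to 3.68. Leaving out the 3 libraries brought Ddc to −0.29 ± 0.17 and Slc30a1 to −0.41 ± 0.25, while Calr4 was at −2.11 ± 0.66.

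**Figure D1:**
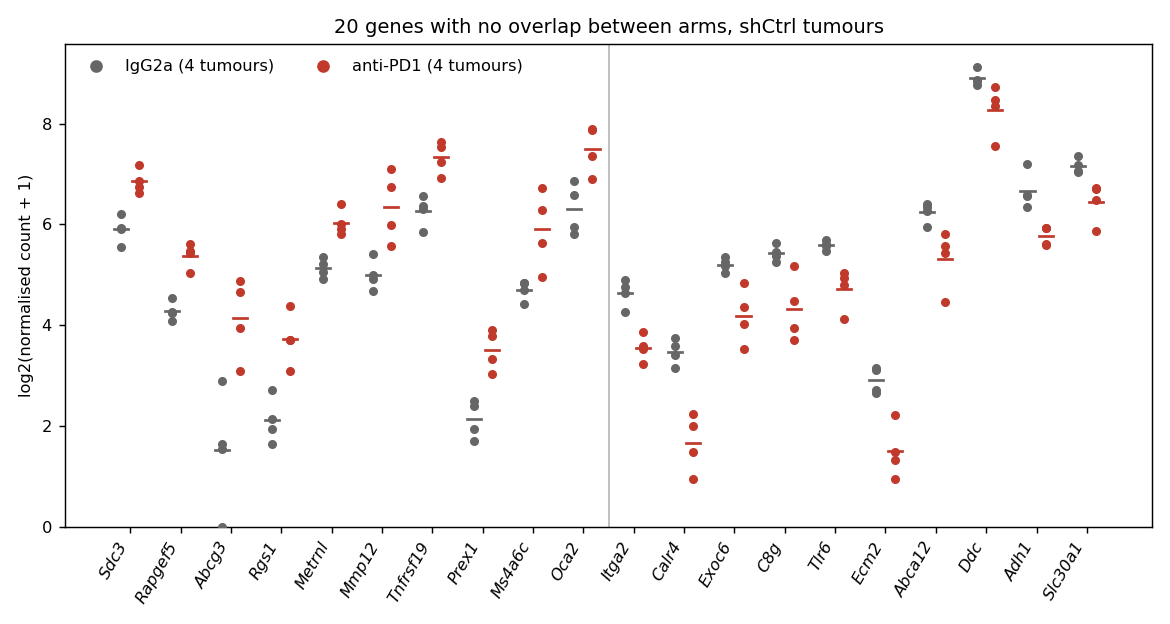
Values of the 20 named genes on a log2(normalised count + 1) axis; each point is 1 shCtrl tumour, short bars are means of 4 tumours, grey is IgG2a and red anti-PD1. The 10 genes left of the line have all anti-PD1 values above the IgG2a values and the 10 on the right have them all below; the choice of genes fixes this separation.

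The clearest pattern lay inside the anti-PD1 arm: tumours 3 and 4 had high MHC class II and interferon gamma response genes. Tumour 1 lay near the control level. Tumour 2 held the lowest value for 4 of 10 class II genes (40%) and 17 of 30 interferon gamma genes (56.7%), against 23% over all genes. H2-Aa, encoding the alpha chain of the class II molecule I-A, had 231, 168, 176 and 134 normalised counts under IgG2a and 274, 141, 898 and 889 under anti-PD1 (177 ± 40.1 against 551 ± 400, SD, n = 4). The log2 difference of H2-Aa was 1.27 ± 0.48 (adjusted p = 0.798), and the arms overlapped because tumour 2 sat among the controls. H2-Eb1, encoding the beta chain of I-E, had 199, 88.5, 61.8 and 28.6 against 96.6, 39, 424 and 426, with IgG2a tumour 1 above 2 of the anti-PD1 tumours. Cd74, encoding the invariant chain that escorts class II molecules, had 388, 133, 81.8 and 59.1 against 110, 51, 538 and 776. Ciita had 10.1, 6.39, 5.71 and 4.62 against 4.6, 1.5, 29.8 and 29.7, and H2-DMa, a subunit gene of the class II peptide exchanger, 33.8, 26.6, 17.1 and 14.8 against 25.7, 15, 88.3 and 115. The level of Cd74 in IgG2a tumour 1 came closest to those of anti-PD1 tumours 3 and 4.

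Of the class II list, 10 of 12 genes were tested, all 10 had a positive difference and 0 passed the test. For 2 (H2-Aa and H2-Eb2) the unadjusted p was under 0.05, against 1.9% of all genes in that direction. H2-Eb2 had 0 reads in all 4 controls and in anti-PD1 tumours 1 and 2, and 4.65 and 7.19 normalised counts in tumours 3 and 4. The median log2 difference of the list was 0.87 against 0.01 for all genes. Its 2 highest values of the 8 tumours fell in anti-PD1 tumours 3 and 4 for 9 of 10 genes, a count made after seeing that pattern; over all genes tested the share was 2.98%. The list median was 1.94 without the 3 libraries that stood apart, with 0 of 10 called. The controls left out had the highest levels of this list in their arm (0.71 and 0.26 log2 units). Anti-PD1 tumour 2 had the lowest level of its arm (−0.58), so this removal by itself favours a higher median. Leaving out anti-PD1 tumour 3 or 4 brought the list median to 0.54 and 0.51.

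Interferon gamma response genes followed the same order of tumours. Irf1 had 250, 210, 272 and 227 normalised counts under IgG2a and 254, 201, 587 and 568 under anti-PD1 (0.60 ± 0.32). Gbp2, encoding a guanylate-binding GTPase that attacks pathogen vacuoles, had 64.2, 27.7, 36.1 and 44.3 against 48.7, 22.5, 160 and 163 (0.82 ± 0.50). Iigp1, encoding an immunity-related GTPase, had 331, 103, 172 and 152 against 254, 96.1, 877 and 885 (1.10 ± 0.54). In each, anti-PD1 tumours 3 and 4 were high and alike, while tumours 1 and 2 lay within the range of the controls, or just below it in tumour 2. Gbp4 had 11.3, 6.39, 6.66 and 2.77 against 15.6, 3.00, 66.9 and 88.1 (1.82 ± 0.70). The guanylate-binding and immunity-related GTPases form families of similar sequence, so their reads may be split among members. Cxcl9, the chemokine that draws in CXCR3-bearing T cells, had 108, 23.4, 11.4 and 24.9 against 32.2, 4.50, 112 and 105; IgG2a tumour 1 was at the level of anti-PD1 tumours 3 and 4 there. Its difference of 0.34 ± 0.75 turned negative without anti-PD1 tumour 3 (−0.18), without anti-PD1 tumour 4 (−0.15) and without IgG2a tumour 3 (−0.09). It was 2.03 ± 0.47 without the 3 libraries, which held its highest control value and its lowest anti-PD1 value. Cxcl10 had 397 to 1403 against 512 to 1945, with wide overlap, and its difference turned from 0.22 ± 0.42 to −0.11 ± 0.43 without the 3 libraries.

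Over the interferon gamma list, 30 of 31 genes were tested, 29 had a positive difference and 0 passed. For 4 (Gbp4, Irgm1, Irgm2 and Psmb9) the unadjusted p was under 0.05, all higher (1.9% over all genes). The list median was 0.55, or 0.97 without the 3 libraries and 1.14 without anti-PD1 tumour 2 alone. Anti-PD1 tumours 3 and 4 held the 2 highest values for 22 of 30 genes (2.98% over all genes), and anti-PD1 tumour 2 the lowest for 17 of 30 (23% over all genes). The type I interferon list, which covers genes induced by interferon alpha and beta, differed less, with a median of 0.13 over 38 genes and 0 passing; its level was high in anti-PD1 tumour 3 alone, at 0.82 log2 units above the control mean against 0.14 in tumour 4. Interferon gamma itself was not analysed here.

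**Figure D2:**
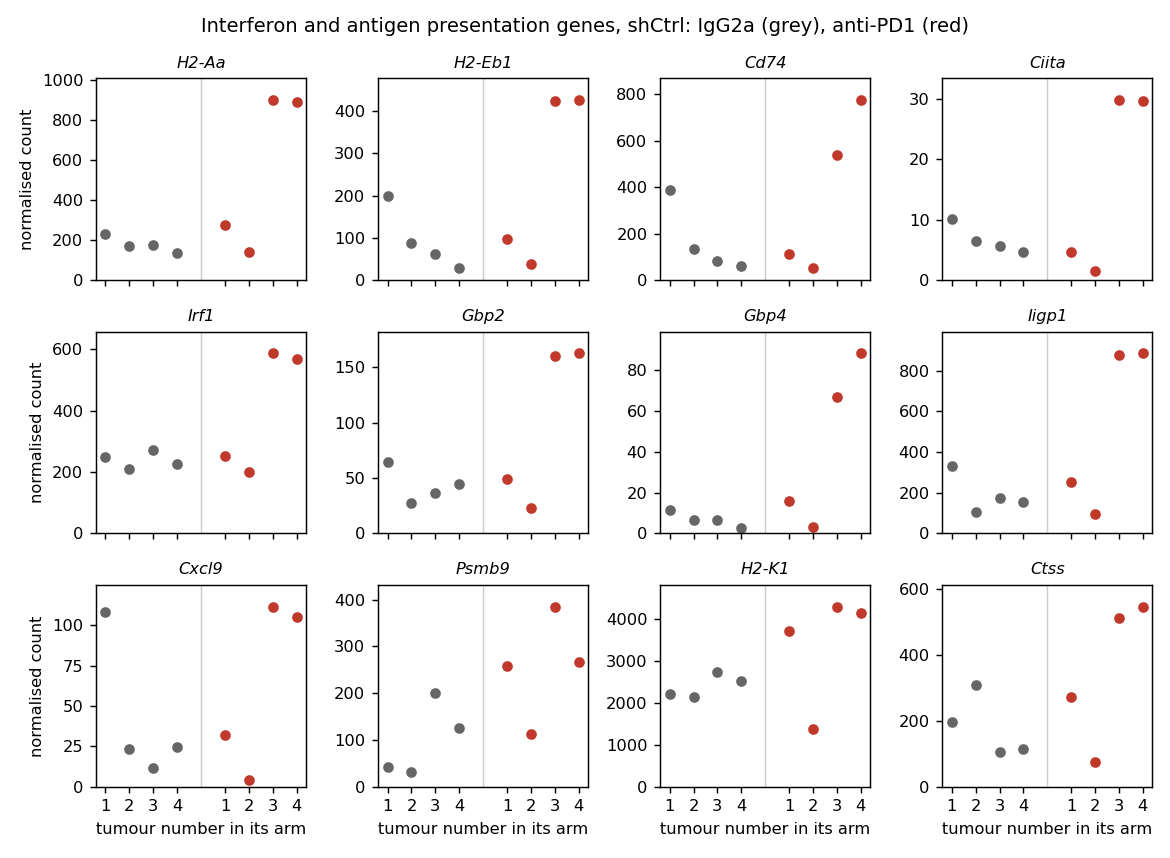
Normalised counts of 12 interferon and antigen presentation genes in each shCtrl tumour (linear axes from 0; IgG2a tumours 1 to 4 grey, anti-PD1 tumours 1 to 4 red). Anti-PD1 tumours 3 and 4 are the highest for H2-Aa, at 898 and 889, while anti-PD1 tumour 2, at 141, lies within the control range of 134 to 231.

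MHC class I genes and the machinery that loads them were spread more evenly over the anti-PD1 arm than class II genes, but tumours 3 and 4 were again the highest. The level of the list in anti-PD1 tumours 1 to 4 was 0.49, −0.10, 0.97 and 0.69 log2 units relative to the control mean. Tumours 3 and 4 held the 2 highest values for 11 of 23 genes (47.8%, against 2.98% over all genes). H2-K1, a classical class I heavy chain gene, had 2215, 2135, 2746 and 2515 normalised counts under IgG2a and 3711, 1380, 4299 and 4158 under anti-PD1 (0.37 ± 0.27), and H2-D1 had 1369, 1516, 2791 and 2541 against 3723, 1438, 4027 and 3889 (0.63 ± 0.30). For both, anti-PD1 tumours 1, 3 and 4 lay above all controls and tumour 2 lay low. H2-Q4, a non-classical class I gene, was the only member of the class I list whose arms did not overlap, at 61.9, 62.9, 99.9 and 110 against 155, 117, 167 and 133 (0.80 ± 0.25, adjusted p = 0.798). Over all genes the share lying higher without overlap was 0.981%. Psmb8 encodes an immunoproteasome subunit that alters which peptides are cut, and had 208, 149, 314 and 162 against 352, 255, 721 and 635 (1.17 ± 0.36). Its partner Psmb9 had 41.6, 30.9, 200 and 126 against 258, 113, 385 and 268 (1.61 ± 0.52). The low controls of Psmb9, H2-Q4, H2-D1 and H2-K1 were IgG2a tumours 1 and 2, the pair with the unusual GC slope. Without the 3 libraries the difference was 0.91 ± 0.42 for Psmb9 and 0.53 ± 0.28 for H2-Q4. That of H2-D1 was 0.54 ± 0.20 and that of H2-K1 was 0.62 ± 0.19. B2m, encoding the class I light chain, had 17924 to 23200 against 13670 to 32291, and Tap1, a peptide transporter subunit gene, 206 to 353 against 140 to 458. Over the list, 23 of 24 genes were tested, 19 had a positive difference and 0 passed. For 5 (Psmb8, Psmb9, Psme2, Erap1 and H2-Q4) the unadjusted p was under 0.05, all higher (1.9% over all genes). The median was 0.42, and 0.53 without the 3 libraries.

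Macrophage genes tracked the class II genes by tumour. C1qc, encoding a chain of the complement protein C1q made by macrophages, had 32.6, 92.7, 65.6 and 51.7 normalised counts under IgG2a and 120, 54, 194 and 226 under anti-PD1 (1.19 ± 0.47). C1qa had 231, 234, 67.5 and 58.2 against 128, 66.1, 314 and 321, and Csf1r, encoding the receptor for the macrophage growth factor CSF1, 110, 116, 39 and 42.5 against 57.9, 21, 121 and 138. In C1qa and Csf1r, IgG2a tumours 1 and 2 were nearly as high as anti-PD1 tumours 3 and 4. The macrophage and monocyte list had a median difference of 0.40 over 23 genes, 16 of them positive and 0 passing. Without the 3 libraries 22 of 23 were positive, 0 passed and the median was 1.21. The controls left out had the highest levels of this list in their arm (0.37 and 0.59 log2 units). Anti-PD1 tumour 2 had the lowest level of its arm (−1.06), so this removal by itself favours a higher median. Without anti-PD1 tumour 3 the median was −0.04. For 16 of 23 genes the 2 highest values were in anti-PD1 tumours 3 and 4 (2.98% over all genes). For 14 of 23 the lowest was in tumour 2 (23% over all genes). Adgre1, the gene of the macrophage antigen F4/80, had 0 reads in anti-PD1 tumour 2 against 7.61 to 42.8 normalised counts in the other 7. The differences of Csf1r and Adgre1 were −0.01 and −0.04 and turned to 1.26 ± 0.55 and 1.21 ± 0.54 without the 3 libraries. Whether the class II pattern comes from macrophages, from melanoma cells or from both was not tested.

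Of the genes shared by all leukocytes 15 of 19 had a positive difference. Anti-PD1 tumours 3 and 4 were again the highest, but unlike for the class II genes tumour 2 was not the lowest. Tumours 3 and 4 held the 2 highest values for 6 of 19 genes (31.6%, against 2.98% over all genes). The level of the list in anti-PD1 tumours 1 to 4 was 0.13, 0.28, 0.80 and 0.66 log2 units above the control mean. Tumour 2 held the lowest value for 2 of 19 genes (10.5%, against 23% over all genes). Cd53, encoding a leukocyte tetraspanin, had 12.4, 12.8, 13.3 and 18.5 normalised counts under IgG2a and 34, 18, 48.3 and 77.3 under anti-PD1 (1.41 ± 0.34), with only tumour 2 inside the control range. Hcls1, encoding a cytoskeletal adaptor of blood cells, had 60.8, 68.2, 64.7 and 76.6 against 79.1, 138, 123 and 110 (0.70 ± 0.22), with no overlap, and Arhgdib, named after its values were seen, was the member whose anti-PD1 values all lay below the controls, at 1797 to 2004 against 1383 to 1719. Over all genes 0.981% lay higher without overlap and 1.13% lower. Ptprc, encoding CD45, had 34.9, 27.7, 6.66 and 9.23 against 23, 12, 52.1 and 53.9 (0.87 ± 0.51, and 2.22 ± 0.43 without the 3 libraries). The libraries left out held its highest control values and its lowest anti-PD1 value. The pan-leukocyte list had a median of 0.38, or 0.64 without the 3 libraries, and 0 genes passed. For 4 (Cd53, Lcp1, Hcls1 and Ikzf1) the unadjusted p was under 0.05, all higher (1.9% over all genes). Among chemokine genes, Ccl4, which attracts immune cells, had 10.1, 11.7, 5.71 and 7.38 against 12.9, 12, 25.1 and 20.7 (0.92 ± 0.32) and did not overlap. Ccl2, which recruits monocytes, had 10.1, 11.7, 25.7 and 41.5 against 46, 16.5, 40.9 and 80.0 (1.03 ± 0.47). Of 19 chemokine genes tested, 11 had a positive difference, 0 passed and the median was 0.25. Without the 3 libraries 15 were positive and the median was 0.69. The controls left out had the highest levels of the chemokine list in their arm (0.22 and 0.04 log2 units). Anti-PD1 tumour 2 had the lowest level of its arm (−0.86), so this removal by itself favours a higher median.

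Most T cell and cytotoxic genes had few reads in the shCtrl tumours: the mean of the 8 tumours was under 5 normalised counts for 10 of 17 T cell genes and 9 of 11 cytotoxic genes tested. The exceptions included Ccl5, a chemokine gene of cytotoxic cells, at 125 to 290 under IgG2a and 113 to 207 under anti-PD1. In the shMdk tumours the same lists lay 1.29 to 2.82 and 2.02 to 4.63 log2 units above the mean of the shCtrl controls. The expression filter took the mean over the tumours of both lines. Genes with a mean under 5 in shCtrl therefore entered these lists only where their shMdk mean was higher. Part of this excess is thus built in by the filter, and how much was not tested. Cd3e, which encodes part of the T cell antigen receptor, had 3.38, 0, 0 and 0.923 normalised counts under IgG2a and 0, 0, 2.79 and 0 under anti-PD1. Cd8a, the coreceptor of cytotoxic T cells, had 2.25, 0, 0 and 1.85 against 3.68, 0, 0.93 and 2.70. Pdcd1, the gene of the blocked receptor, had 2.25, 0, 0 and 0.923 against 0, 3.00, 0.93 and 0.899 and was below the expression filter. The T cell list had a median of 0.40 over 17 tested genes, with 0 passing; the cytotoxic list had a median of −0.00 over 11 of 19, with 0 passing. Prf1, encoding the pore protein perforin, stood out in IgG2a tumour 1, with 11.3 there, 0 in the other 3 controls and 1.84, 0, 2.79 and 0.899 under anti-PD1. The cytotoxic level of IgG2a tumour 1 was 1.5 log2 units above the mean of its arm, higher than in any anti-PD1 tumour (0.79 at most). With IgG2a tumours 1 and 2 and anti-PD1 tumour 2 left out, the cytotoxic median was 0.94, with 0 of 11 called. Klrk1, the gene of the activating receptor NKG2D, had 78.1 in anti-PD1 tumour 2 against 0 to 6.29 elsewhere, and Tox, a transcription factor gene of T cells, 40.5 there against 0 to 3.59. Cd274, the PD-L1 gene, had 368, 107, 97 and 76.6 against 120, 49.5, 92 and 112 (−0.56 ± 0.45), and its difference turned to 0.31 ± 0.40 without the 3 libraries. Apart from IgG2a tumour 1 the Cd274 values of both arms overlapped widely.

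**Figure D3:**
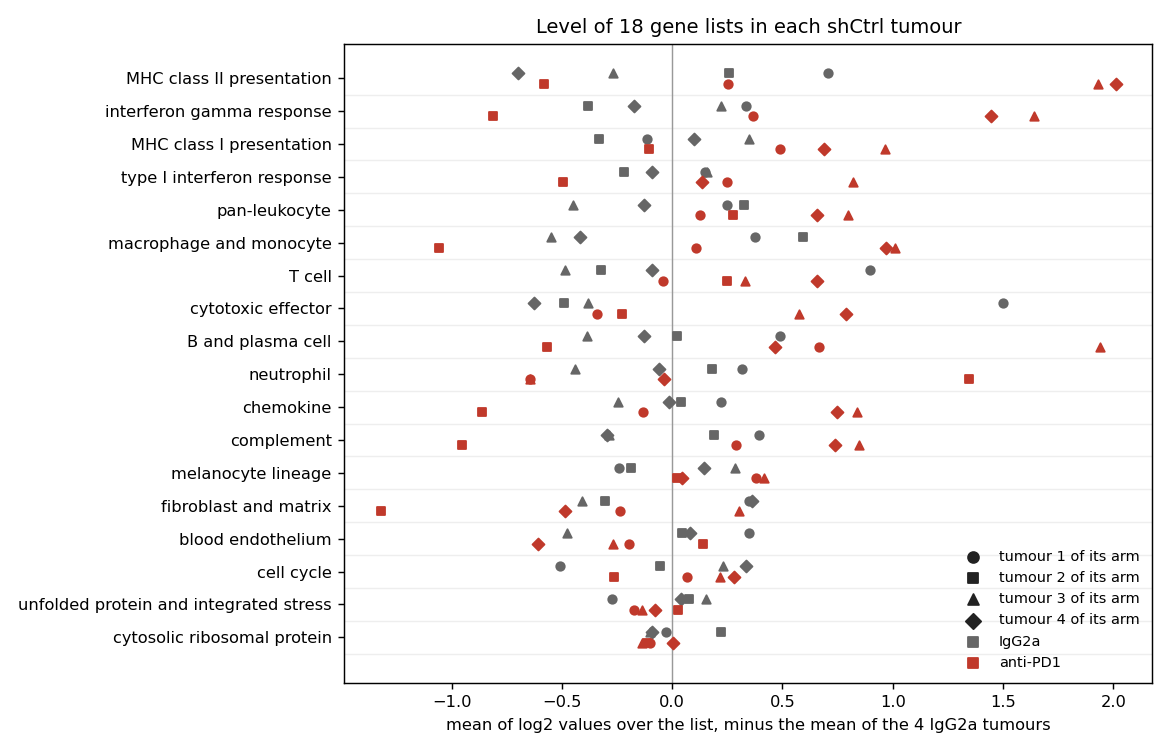
Mean of log2(normalised count + 1) over the tested genes of 18 lists in each shCtrl tumour, relative to the mean of the 4 IgG2a tumours (grey IgG2a, red anti-PD1; marker shape gives the tumour). For the class II list anti-PD1 tumours 3 and 4 lie at 1.93 and 2.01, tumour 1 at 0.25 and tumour 2 at −0.58.

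No gene of the melanocyte, cell cycle, fibroblast, endothelial or stress response lists passed the test, and the medians of these lists ran from −0.42 to 0.16. The melanocyte median was 0.16 over 19 genes, and 0.03 without the 3 libraries; Tyr, encoding the pigment enzyme tyrosinase, had 908 to 2366 normalised counts under IgG2a and 1287 to 2627 under anti-PD1, and Mlana 6322 to 8903 against 4658 to 10570. Mitf, the melanocyte master regulator gene, had 14001, 12124, 12221 and 9353 against 13696, 7827, 8762 and 7751 (−0.35 ± 0.18), or −0.13 ± 0.23 without the 3 libraries, where Tyr turned from 0.32 to −0.17 ± 0.33. Cell cycle genes had a median of −0.01 over 30 genes; Mki67, a proliferation marker, had 2830, 2436, 1651 and 1730 against 1480, 1274, 1677 and 1915 (−0.42 ± 0.20), the high values being IgG2a tumours 1 and 2, and its difference was −0.01 ± 0.21 without the 3 libraries. Fibroblast and matrix genes had a median of −0.42, with 16 of 18 negative and 0 passing. The lowest value was in anti-PD1 tumour 2 for 11 of 18 (23% over all genes), and the median was −0.18 without the 3 libraries. Col3a1, the collagen III gene, had 306, 206, 217 and 285 against 187, 24, 474 and 126. Blood endothelium genes had a median of −0.15 over 16 genes, 2 of them lower with an unadjusted p under 0.05 (1.89% over all genes). Vwf, encoding von Willebrand factor, had 118, 36.2, 113 and 105 against 19.3, 63, 20.5 and 38.6 (−1.40 ± 0.58), and Egfl7, an endothelial secreted factor gene, 1155, 926, 514 and 672 against 565, 465, 406 and 425 (−0.75 ± 0.30). These differences were −2.09 ± 0.67 and −0.35 ± 0.36 without the 3 libraries. Among genes of the unfolded protein and integrated stress responses, the median was −0.20 over 19. Herpud1, which acts in the removal of misfolded proteins from the endoplasmic reticulum, had 535, 532, 584 and 481 against 445, 354, 382 and 360 (−0.47 ± 0.17), without overlap. Chac1, which degrades glutathione, had 117, 135, 95.1 and 60 against 28.5, 85.6, 32.5 and 44.9 (−1.15 ± 0.46). Fabp4, a fatty acid carrier gene of adipocytes, macrophages and capillaries, had 36, 39.4, 88.4 and 154 against 161, 300, 130 and 172 (1.43 ± 0.43), and Lpl, encoding lipoprotein lipase, 87.8, 127, 96.1 and 98.8 against 239, 76.6, 187 and 308 (0.82 ± 0.36). The low Fabp4 values were those of IgG2a tumours 1 and 2, and its difference was 0.39 ± 0.41 without the 3 libraries, against 1.29 ± 0.36 for Lpl.

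Differences between single tumours, not the arms, dominated the variance. Over 9706 genes with a mean of at least 50 normalised counts, the first principal component took 56.1% of the variance of the 8 tumours and the second 24.3%, and neither separated the arms. IgG2a tumours 1 and 2 scored 61.3 and 35.7 on the first, where the other 6 ran from −23.1 to −7.05. Its leading genes were nearly absent from that pair: Ctnnd1, encoding the adhesion protein p120 catenin, had 7.88 and 28.8 normalised counts there against 304 to 806 in the other 6, and Cox17, a copper chaperone gene, 34.9 and 67.1 against 553 to 965. Anti-PD1 tumour 2 scored 49.8 on the second component, where no other exceeded −0.40. The haemoglobin gene Hba-a1 had 124856 normalised counts in it against 602 to 34765 elsewhere, and Alas2, encoding the first enzyme of haem synthesis in red cells, 2641 against 9.30 to 602. Pcyox1l had 25.5 in that tumour against 194 to 289. The neutrophil list was also highest there, at 1.35 log2 units above the control mean against 0.32 at most in the other 7; S100a8, a calprotectin subunit gene, had 138 against 1.86 to 50.7. Summed over the erythroid list, normalised counts lay between 5308 and 123923 in the IgG2a arm and between 3577 and 574874 in the anti-PD1 arm. The part of blood content in the low class II and macrophage values of anti-PD1 tumour 2 was not tested.

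**Figure D4:**
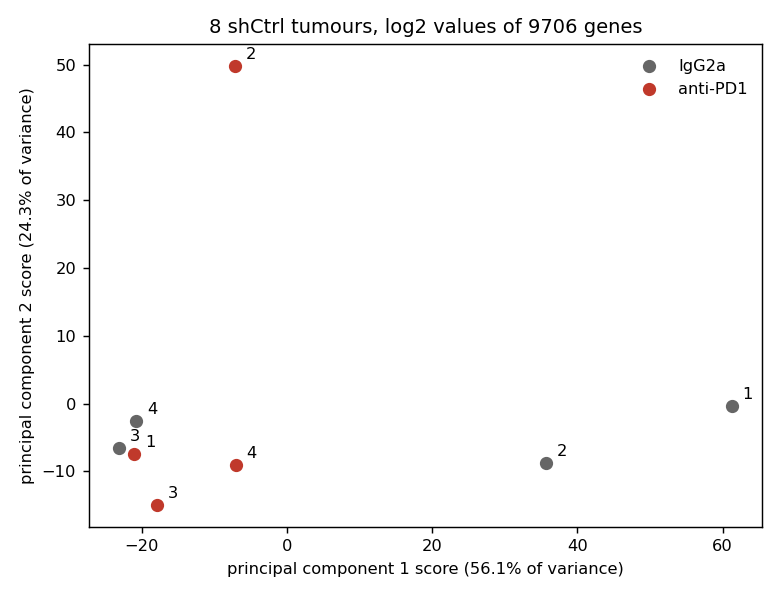
Scores of the 8 shCtrl tumours on the first 2 principal components of 9706 genes (grey IgG2a, red anti-PD1; numbers name the tumour in its arm). IgG2a tumours 1 and 2 lie far to the right, at 61.3 and 35.7, and anti-PD1 tumour 2 at the top, at 49.8; the other 5 lie together.

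Counting genes at least 2-fold away from the mean of the other 3 tumours of the arm gave 1099, 270, 551 and 499 for the IgG2a tumours and 94, 750, 123 and 78 for the anti-PD1 tumours. For IgG2a tumours 3 and 4 that mean included both tumours 1 and 2, which stood apart, so their counts do not mark them as unusual. For IgG2a tumour 2 the mean included tumour 1, so its low count does not mark it as typical. The median SD of the log2 values was 0.294 under IgG2a and 0.231 under anti-PD1. Without the 3 libraries the order turned, to 0.0957 over 2 IgG2a tumours and 0.149 over 3 anti-PD1 tumours, and 66.2% of genes varied more under anti-PD1. At equal spread, the median SD over 2 tumours is expected to be lower than that over 3. The 2 controls kept also had the highest correlation of any pair within an arm (r = 0.981). This turn therefore does not show that anti-PD1 tumours vary more. Among the genes with the largest spread inside the anti-PD1 arm, Rhox5, an X-linked homeobox gene active in reproductive tissue and in many tumours, had 971, 4.50, 8.37 and 5.39 normalised counts, and 32.6, 19.2, 317 and 35.1 under IgG2a. Xlr, an X-linked lymphocyte-regulated gene, had 225 in anti-PD1 tumour 3 against 9.89 to 43.5 in the other 7. Rhox5 was thus high in a tumour whose class II genes were at the control level, and Xlr in one whose class II genes were high. Igkc, the immunoglobulin kappa constant region gene, had 84.6 in anti-PD1 tumour 3 against 0 to 13.5 elsewhere.

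In the shMdk tumours the same contrast called 5 of 14672 genes (0.0341%): Ctsl, Sdc3, Mmp12 and Slfn4 rose and Mbnl3 fell. For Sdc3 the difference there was 1.38 ± 0.20 (adjusted p = 0.0152) beside 0.95 ± 0.20 in shCtrl, and for Mmp12 1.99 ± 0.31 (adjusted p = 0.0313) beside 1.35 ± 0.31. Ctsl, encoding the lysosomal protease cathepsin L, rose by 1.39 ± 0.19 in shMdk (adjusted p = 0.0152), while its shCtrl difference was 0.26 ± 0.19. A test of the difference between the lines called 0 of 14672 genes (506 at an unadjusted p under 0.05; edgeR and DESeq2 also called 0, with 654 and 714), so no gene was shown to respond differently in shCtrl. The average of the 2 lines' effects, a contrast added after seeing the data, called 7 genes (0.0477%), all higher: Sdc3, Mmp12, Rgs1, Metrnl, C130026I21Rik, Ctsl and Cd53. That count was 53 without the 3 shCtrl libraries and 0 without the 5 libraries with the highest GC slopes, of which 2 were shCtrl IgG2a tumours 1 and 2; it was 54 (53 higher, 1 lower) when shCtrl anti-PD1 tumour 2 was left out with those 5. The lines share no tumours. Across genes the 2 sets of differences had a Pearson r of 0.30 with all tumours, −0.16 without those 5 libraries and 0.09 without the 5 and shCtrl anti-PD1 tumour 2; genes are not independent replicates, and the libraries' GC slopes enter both sets. For H2-Aa the shCtrl difference of 1.27 ± 0.48 stood beside 1.16 ± 0.48 in shMdk, and for Irf1 0.60 ± 0.32 beside 0.67 ± 0.32. Arg1, the arginase gene of alternatively activated myeloid cells, had −0.41 ± 0.60 in shCtrl and 2.44 ± 0.60 in shMdk, and the chemokine gene Ccl8 −0.24 ± 0.64 and 2.21 ± 0.64; neither passed in either line. Without the 3 libraries the shCtrl differences turned to 0.43 ± 0.73 for Arg1 and 1.24 ± 0.55 for Ccl8.

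**Figure D5:**
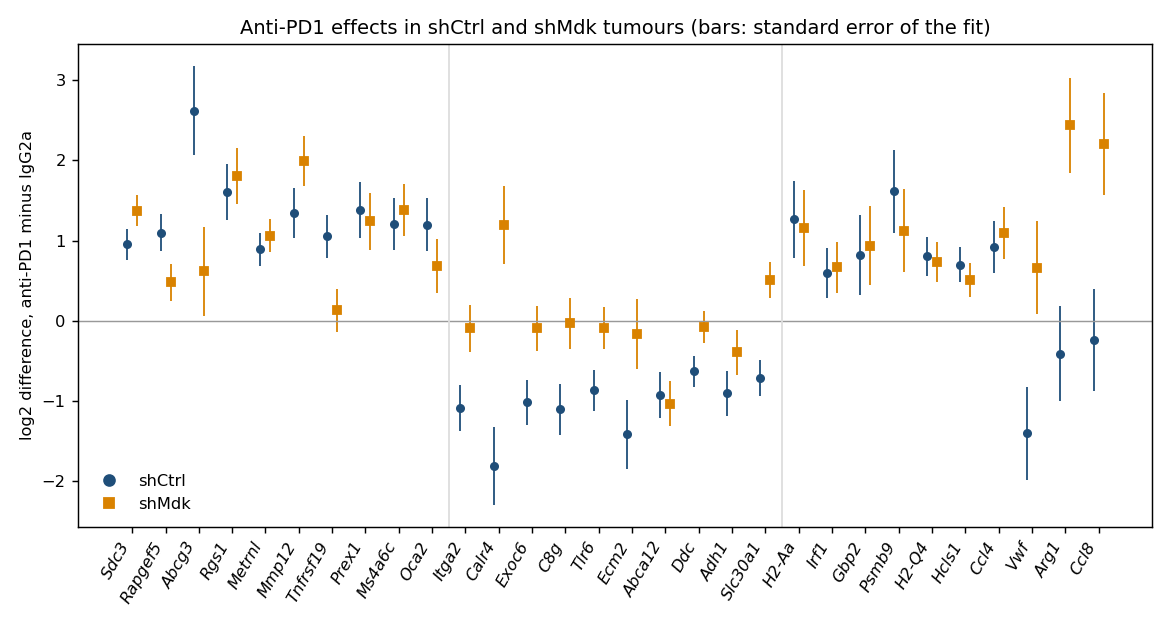
Log2 difference of anti-PD1 minus IgG2a in shCtrl (blue circles) and shMdk tumours (orange squares) for the 20 named genes and 10 others, with the SE of the fit as bars. Sdc3 lies at 0.95 in shCtrl and 1.38 in shMdk; of the genes on the lower side in shCtrl, Itga2 lies at −1.09 and −0.09.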

How the data were processed

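RNA from 16 tumours was read as 3′ libraries made from 500 ng of RNA per the labels' protocols, with counting by strand. The values are a deposited signal: the authors counted reads and scaled each library by its DESeq2 size factor, as the values show; the submitters' processing notes name DESeq2. The notes further list the build GRCm38 (mm10), HTSeq, SAMtools 0.1.19, TopHat2 2.0.10, FastQC 0.11.0 and Bowtie 1.0.0, without versions or roles for all. Whole reads were recovered from the deposited signal (100% of values whole within 0.001 of a read), 16094 genes in all. Low 3′ annotation or amplification lowers a gene's value, and length does not scale it.

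Tumours were grouped by their labels; tumour numbers follow accession order and pair nothing. The main test was limma 3.58.1 (R 4.3.3; group means, trend) on log2(value + 1) for the 14672 genes with a mean of at least 5, over all 16 tumours (12 residual degrees of freedom), with Benjamini-Hochberg adjustment over all genes; the group means share 1 spread estimate. Every adjusted p comes from limma unless edgeR 4.0.16 or DESeq2 1.42.0, run on the recovered reads, is named. The log2(value + 1) scale understates changes of low genes. SE is that of the fit and SD is over tumours. The labels describe separate tumours. The limma p-values and SE rest on the spread between tumours pooled over all groups, not on that of the shCtrl arms alone. With the 8 shCtrl tumours alone, the smallest limma adjusted p for anti-PD1 against IgG2a was 0.852, against 0.141 in the main fit. Scripts were tested on simulated data.

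Named genes were the 10 per direction with the smallest p and no overlap between arms (no Gm, Rik, Mir, Snor or pseudogene symbols), extreme and abundant members of 45 gene lists (636 tested genes), a fixed set, and the genes with the largest spread or component loadings; the text takes those that matter most, and names outside the rule were chosen after their values were seen. The members and lists were chosen with earlier results of these data known. The alternatives varied the pseudocount, filter, scaling, weights, tool and tumours; edgeR, DESeq2, the fits without 3 or 5 libraries and the average of both lines were added after seeing the data. Genes without an entry in the table used were not analysed here, and some genes' values are not reported here.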

Additional observations from a re-analysis of the deposited data

Results flagged for a closer look

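Within groups of 4 tumours, a single tumour was marked where its gap to the next, divided by the group's range (Dixon's ratio), exceeded Dixon's critical value for 4 samples; chance marks about 1 in 20 groups. Of 370 groups tested 24 were marked (6.49%), close to that share. The groups are not independent, and some genes were chosen after their values were seen, so this share cannot tell which marks are chance. The marks were not spread evenly, as most library measures were marked in anti-PD1 tumour 2. In anti-PD1 tumour 2 the ratio was 0.835 for total reads and 0.842 for genes detected (both lowest), 0.936 for the Gm42418 share, 0.976 for the haemoglobin share and 0.893 for the share of the 10 most abundant genes (all highest). The same tumour was highest for the midkine and partners list (0.935) and lowest for the Myc list (0.921), H2-D1 (0.924), H2-K1 (0.87), Pcyox1l (0.908), Axl (0.843), Cd22 (0.854) and Pdcd1lg2 (0.836). IgG2a tumour 1 was highest for the cytotoxic list (0.885), the checkpoint list (0.842), Nkg7 (0.949) and Prf1 (1). IgG2a tumour 4 was highest for the Gm42418 share (0.875) and the TGF-beta list (0.852), and IgG2a tumour 2 lowest for Vwf (0.901). Anti-PD1 tumour 3 was highest for the WNT target list (0.98), and anti-PD1 tumour 1 for Rhox5 (0.897). Cd3e in anti-PD1 tumour 3 and Gzma in IgG2a tumour 2 each had a ratio of 1 because the other 3 tumours had 0 reads.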

How the results depend on the processing

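In shCtrl the count of called genes was 0 under the other pseudocounts, filters and scalings, with the 8 shCtrl tumours alone, with edgeR, without IgG2a tumours 1 and 2, without the 3 libraries and without the 5 with the highest GC slopes. It was 20 with quality weights, 7 with DESeq2 and 2 without anti-PD1 tumour 2 (the library highest in Gm42418); leaving out 1 tumour at a time gave 0 to 2. The difference between the lines had 0 calls under every alternative run. In shMdk the 5 calls became 3 with a pseudocount of 0.5, without a filter, with TMM or with upper-quartile factors, 27 with a pseudocount of 5, 73 with weights, 25 in the 8 shMdk tumours alone, 8 with edgeR and 244 with DESeq2. They became 36 without shCtrl anti-PD1 tumour 2, 13 without shCtrl IgG2a tumours 1 and 2, 155 without these 3 and 1 without the 5 libraries; leaving out 1 shMdk tumour gave 0 to 12. The causes were not tested. Of 51 genes whose shCtrl difference is given in the text, Adgre1, Arg1, Ccl8, Cd274, Csf1r, Ctsl, Cxcl9, Cxcl10, Mdk and Tyr changed direction under at least 1 alternative. Cxcl9 ran from −0.18 (without anti-PD1 tumour 3) to 1.27 (without anti-PD1 tumour 2) when 1 tumour was left out, and was 2.03 without the 3 libraries. Without these 3, 9 of 50 changed direction (those named, other than Cxcl9), 9 were over 1.5 times larger and 9 over 1.5 times smaller. Without the 3 libraries, 11 of 42 list medians moved by more than 1 SD over tumours (class II, checkpoint, cytotoxic, macrophage, dendritic cell, Fc receptor, complement, dedifferentiated melanoma, hypoxia, mitochondrially encoded and ribosomal protein genes), and 14 of 42 changed sign. For the class II, checkpoint, macrophage, dendritic cell, Fc receptor and complement lists, the controls left out had the highest levels of their arm. The anti-PD1 tumour left out had the lowest. The same held for the chemokine list and some others. For all of these the removal by itself favours a higher median. Without IgG2a tumours 1 and 2 alone, 6 moved and 18 changed sign. No paired analysis was possible because the labels give the tumours no numbers shared between arms. Genes under about 5 normalised counts, most T cell genes among them, are limited by depth.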

Other observations

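Some genes outside the groups described above also differed in their means without passing the test. Egr1, an immediate early transcription factor gene, had 37.1, 11.7, 15.2 and 27.7 normalised counts under IgG2a and 34, 57, 74.4 and 71.9 under anti-PD1 (log2 difference 1.41 ± 0.48), while its relative Egr3 had 12.4, 9.59, 1.9 and 5.54 against 2.76, 1.5, 0.93 and 1.8 (−1.43 ± 0.60). Kit, the receptor gene for stem cell factor on melanocytes and mast cells, had 15.8, 11.7, 34.2 and 51.7 against 51.5, 69.1, 112 and 45.8 (1.40 ± 0.61); its lowest values were those of IgG2a tumours 1 and 2, and the difference was 0.60 ± 0.75 without the 3 libraries that stood apart. Cytosolic ribosomal protein genes had a negative difference in 40 of 56, with a median of −0.16 and 0 passing; that median was 0.03 without the 3 libraries. Erap1, which trims peptides for class I molecules, had 60.8, 70.3, 94.2 and 66.5 against 92, 82.6, 126 and 129 (0.54 ± 0.20).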
